A study of Homo sapiens with 8 samples.

Results

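NF-kB is a family of dimeric transcription factors made from 5 subunits, NFKB1, NFKB2, REL, RELA and RELB, which inhibitor proteins hold in check. Those inhibitors and the enzymes that shut the pathway down are themselves encoded by genes that NF-kB turns on, so the levels of their messenger RNAs are widely read beside the activity of the pathway in myeloid cells. The 10 genes described here are the 5 subunits, the inhibitors NFKBIA and NFKBIE, NFKBIZ, and the ubiquitin-pathway enzymes TNFAIP3 and BIRC3. NFKBIZ encodes an atypical member of the inhibitor family, which acts as a co-activator in the nucleus. The genes were chosen by symbol, and all 10 were found once each among the 16726 genes listed.

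The libraries were poly(A) RNA sequencing of MM6 (MonoMac 6) and NB4, both established human acute myeloid leukaemia lines. MM6 is known as a monocytic and NB4 as a promyelocytic line, whereas both carry the label acute monocytic leukemia. There were 4 groups of 2 libraries each: MM6 with the hairpin against METTL14 (shM14, labelled shM14-#2), MM6 with the non-specific hairpin shNS, NB4 with shM14 and NB4 with shNS. All cells carried a lentiviral pLKO.1 hairpin and were selected with 0.5 µg/mL puromycin over 2 passages, so no group was free of virus or drug, and a single METTL14 hairpin was sequenced. METTL14 pairs with METTL3 to place N6-methyladenosine on messenger RNA. The comparison asked how lowering it altered the RNA of leukaemia cells. Groups are described as sequenced in duplicate, with nothing on whether the duplicates came from separate cultures, so the spread behind each p-value may be technical.

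Depth was 23272126 to 28814911 reads per library over the listed genes, recovered from the deposited values. METTL14 had 6.54 and 6.55 RPKM (reads scaled to the length of the gene model and to the size of the library) in MM6 shM14 libraries, against 12.5 and 13.4 RPKM in MM6 shNS libraries. It had 8.35 RPKM in each NB4 shM14 library, against 14.1 and 12.5 RPKM in NB4 shNS libraries. Monocyte markers, a list of 8 genes, summed to 14642 and 8385 RPKM in MM6 shM14 libraries and to 9362 and 5977 RPKM in MM6 shNS libraries, nearly all of it LYZ. In NB4 their sum was 125 and 126 RPKM with shM14 and 38.1 and 39.7 RPKM with shNS. FCN1 was at 0 in 3 MM6 libraries and CD163 in 1 NB4 shNS library. The 6 promyelocyte granule markers summed to 2339 and 2380 RPKM in NB4 shM14 libraries and to 2617 and 2717 RPKM in NB4 shNS libraries. In MM6 they summed to 4684 and 5085 RPKM with shM14 and to 4480 and 4650 RPKM with shNS. Their members did not move as 1 group: in MM6 ELANE and PRTN3 were higher with shM14 and CTSG, CST7, MPO and AZU1 lower, all without overlap and none called. In NB4 PRTN3 rose 2.84-fold, while CTSG (0.156-fold), CST7, MPO and AZU1 fell and ELANE did not pass. Of 17 markers of other lineages, 8 were listed, and their sum was at most 3.32 RPKM in MM6 shM14 libraries and 3.95 RPKM in MM6 shNS libraries. In NB4 that sum was 72.7 and 69.7 RPKM with shM14 and 58.9 and 57.4 RPKM with shNS, most of it the T cell gene CD3D and the epithelial gene EPCAM. The log2 difference between replicates of a group had an SD over genes of 0.377 (shM14) and 0.353 (shNS) in MM6, and of 0.125 and 0.152 in NB4, so the MM6 libraries lay further apart, and NFKBIA and NFKBIZ were among the genes that separated them.

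The kappa B site, to which NF-kB dimers bind, stands near the start of several of these genes. The stretch shown first is the 250 bases before the start of NFKBIA, the gene of the best known feedback inhibitor, on the minus strand of chr14:35404750-35404999 (RefSeq, GRCh38.p14). Capitals mark a match, on either strand, to a kappa B-like motif spelled GGG, any 3 bases, then TTCC.

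NFKBIA: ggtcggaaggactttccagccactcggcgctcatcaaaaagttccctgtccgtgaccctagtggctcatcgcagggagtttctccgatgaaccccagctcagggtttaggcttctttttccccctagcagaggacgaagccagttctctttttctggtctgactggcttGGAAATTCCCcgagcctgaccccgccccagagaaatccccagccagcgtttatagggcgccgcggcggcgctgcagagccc

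The other matches of the family are shown in windows of 30 bases on the strand of the gene, so that their letters can be compared. They come from chr4:102501300-102501329 (NFKB1), chr10:102394462-102394491, chr10:102394490-102394519 and chr10:102395674-102395703 (NFKB2), chr2:60881517-60881546 (REL), chr3:101827757-101827786 (NFKBIZ), chr6:137867182-137867211 and chr6:137867194-137867223 (TNFAIP3) and chr11:102317275-102317304 (BIRC3), all on the plus strand.
NFKB1: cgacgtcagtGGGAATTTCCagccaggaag
NFKB2 a: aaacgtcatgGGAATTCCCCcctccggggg
NFKB2 b: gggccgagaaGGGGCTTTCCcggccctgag
NFKB2 c: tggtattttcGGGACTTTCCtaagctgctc
REL: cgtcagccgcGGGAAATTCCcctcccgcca
NFKBIZ: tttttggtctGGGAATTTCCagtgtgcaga
TNFAIP3 a: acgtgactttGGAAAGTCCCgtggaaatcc
TNFAIP3 b: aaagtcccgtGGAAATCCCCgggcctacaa
BIRC3: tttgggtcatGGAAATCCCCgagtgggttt

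The promoter table held 8 of the 10 members with 13 start sites; NFKBIE and RELB were not matched. A window of 250 bases before and 50 after the start held this motif at 8 of these 13 start sites, belonging to 7 members, and at 6.52% of all 35116 promoters searched. REL carried it on both strands at overlapping positions. At neither start site of RELA did these letters occur, and NFKB1, NFKB2 and NFKBIZ each had 1 further start site without them. A looser spelling, GGG, any 5 bases, then CC, also on either strand, includes every match of the first and was found at all 13 start sites and in 58.7% of all promoters. These matches describe letters in a window, and nothing in the data measured binding.

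Expression of the family differed between the lines before any knockdown. In shNS libraries 9 of the 10 members were lower in both MM6 libraries than in both NB4 libraries, and NFKBIZ was higher. The share of all genes that separated the lines in this way was not worked out, so these counts are a description only. RPKM were scaled per library and the lines come from separate tables, so these levels are set side by side with no test. BIRC3, which encodes a ubiquitin ligase downstream of TNF receptors, had 0.501 and 0.370 RPKM in MM6 shNS libraries and 3.97 and 3.94 RPKM in NB4 shNS libraries. NFKB2, the precursor of p52, had 7.75 and 6.62 RPKM in MM6 controls and 33.7 and 34.8 RPKM in NB4 controls. RELA, the p65 subunit, was closest between lines, with 11.6 and 10.8 RPKM in MM6 controls and 13.5 and 13.4 RPKM in NB4 controls. NFKBIZ, the gene of the nuclear protein I kappa B zeta, averaged 4.68-fold more in MM6 controls than in NB4 controls.

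The order of levels also differed. In MM6 shNS libraries NFKBIZ, TNFAIP3 and NFKBIA were the highest, with means of 60.5 ± 49.2, 50.6 ± 2.98 and 45.3 ± 27.7 RPKM (SD, n = 2), and their libraries overlapped, so these 3 could not be ranked. Below them came NFKB1, RELA, NFKBIE, NFKB2, RELB, REL and BIRC3, each separated from the next without overlap. In NB4 shNS libraries NFKBIA and TNFAIP3 overlapped at the top with 71.3 ± 1.56 and 70.7 ± 0.655 RPKM (SD, n = 2), and NFKB2, NFKB1, NFKBIE, RELB, RELA, NFKBIZ, REL and BIRC3 followed without overlap. With shM14, NFKB1 overtook NFKB2 in NB4, at 45.2 ± 0.806 and 43.3 ± 0.568 RPKM (SD, n = 2). NFKB1 made up 36.5% and 40.0% of the summed RPKM of the 5 subunits in MM6 shM14 libraries, against 28.6% and 38.2% in MM6 shNS libraries. In NB4 its share was 34.9% and 34.7% with shM14 and 30.0% and 29.6% with shNS. RELA made up 23.2% and 22.6% of that sum in MM6 shM14 libraries and 11.2% and 11.6% in NB4 shM14 libraries.

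**Figure D1:**
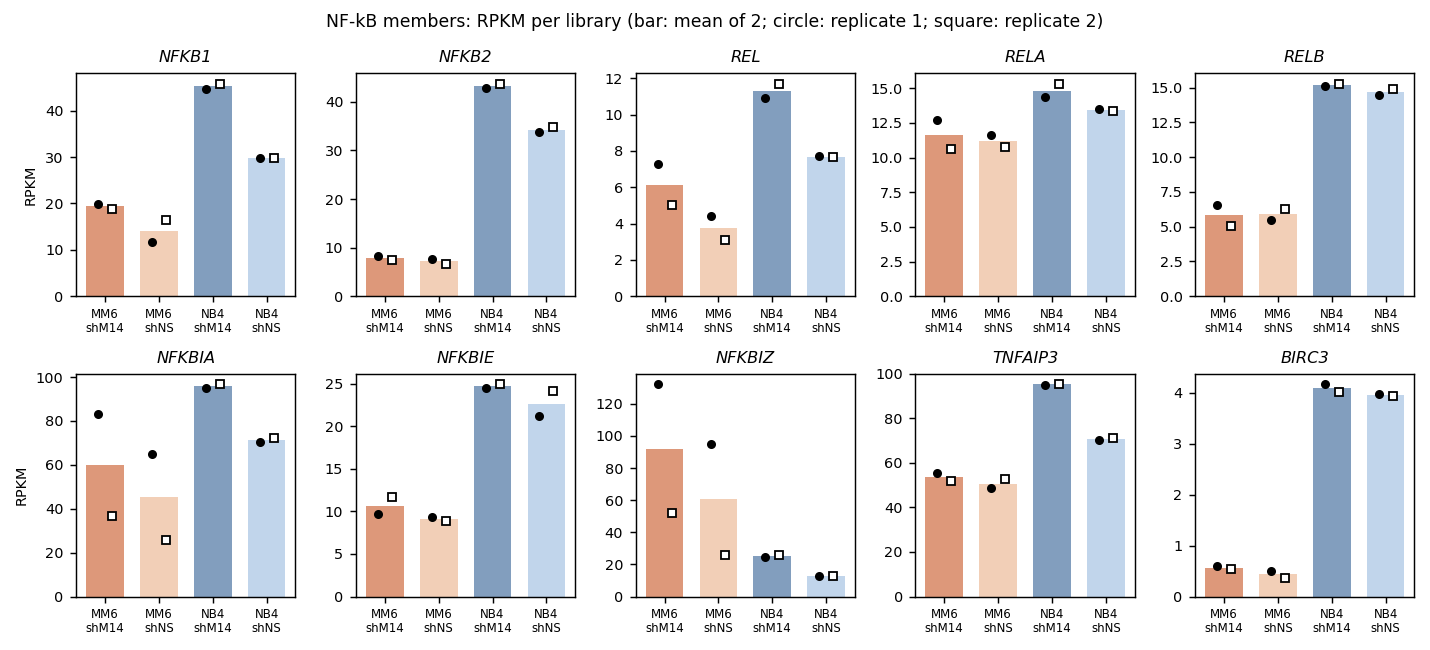
RPKM of the 10 members in each of the 8 libraries, with a separate linear axis starting at 0 for each gene. Bars are means of 2 libraries, circles replicate 1 and squares replicate 2. In NB4 both shM14 libraries stand above both shNS libraries for every member, while in MM6 NFKBIA and NFKBIZ spread from 25.7 to 83.3 and from 25.7 to 132 RPKM.

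With the METTL14 hairpin, 6 of the 10 members rose in NB4, and in MM6 most of their mean changes were in the same direction but none passed in the fit of that line. In NB4 the other 4 did not pass and 0 fell (limma on log2(RPKM + 1), adjusted p under 0.05), where 47.4% of 11531 genes tested were called, 22.1% higher and 25.2% lower. In all 10 members both NB4 shM14 libraries lay above both shNS libraries, which was so for 37.2% of genes tested, while 40% lay lower without overlap. The median log2 change of the 10 was 0.38, beside -0.01 over all genes tested. In MM6 9 members passed the filter on low values (1 RPKM or more in 2 or more libraries), and limma called 0 of the 9. There 0.0757% of 11895 genes were called, 0.0504% higher and 0.0252% lower. METTL14 itself did not pass in that fit, with a log2 change of -0.88 (adjusted p = 0.088). In NB4 METTL14 passed, with a log2 change of -0.61 (adjusted p = 0.0024). REL was the 1 member of 9 with an unadjusted p under 0.05 in MM6, beside 1779 of 11895 genes tested. Voom on recovered reads called no member. Of these 9 members 3 lay higher without overlap in MM6, and 0 lower, beside 19% and 25.8% of genes tested. BIRC3, which was not tested there, also lay higher without overlap. The median of the 9 was 0.20, beside -0.03 over all genes. The authors' deposited table has 8 of the 10 members under an adjusted p of 0.05 in NB4 and 0 in MM6, where 43.6% and 3.28% of its genes were under it.

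The NFKB1 and NFKB2 genes encode the long precursors of p50 and p52, whose uncleaved forms also act as inhibitors. NFKB1 had 19.98 and 18.7 RPKM in MM6 shM14 libraries, against 11.8 and 16.5 RPKM in MM6 shNS libraries. It had 44.6 and 45.8 RPKM in NB4 shM14 libraries, against 29.7 RPKM in each NB4 shNS library. Neither line showed overlap between hairpins. The log2 change was 0.45 in MM6 (SE 0.19, adjusted p = 0.36) and 0.59 in NB4 (SE 0.05, adjusted p = 0.0010), a 1.52-fold rise in NB4. NFKB2 had 8.21 and 7.46 RPKM with shM14, against 7.75 and 6.62 RPKM with shNS, in MM6, where the groups overlapped. In NB4 it had 42.9 and 43.7 RPKM with shM14, against 33.7 and 34.8 RPKM with shNS, a 1.26-fold rise (log2 change 0.33, SE 0.05, adjusted p = 0.0050). Its MM6 change was 0.11, with a 95% interval of -0.25 to 0.48.

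REL, RELA and RELB encode the subunits with a transactivation domain, and of these REL alone passed the test. REL, the c-Rel subunit of lymphoid and myeloid cells, had 7.29 and 4.99 RPKM in MM6 shM14 libraries, against 4.43 and 3.07 RPKM in MM6 shNS libraries. In NB4 it had 10.9 and 11.7 RPKM with shM14, against 7.72 and 7.65 RPKM with shNS. The shM14 libraries were higher without overlap in both lines. The MM6 log2 change of 0.58 was the larger one (SE 0.23, adjusted p = 0.33), and only the NB4 change of 0.50 passed (SE 0.05, adjusted p = 0.0021). RELA had 12.7 and 10.6 RPKM in MM6 shM14 libraries, against 11.6 and 10.8 RPKM in MM6 shNS libraries, and the groups overlapped. In NB4 RELA had 14.4 and 15.3 RPKM with shM14, against 13.5 and 13.4 RPKM with shNS. Its NB4 log2 change of 0.13 did not pass (95% interval -0.00 to 0.26, adjusted p = 0.091), but did with median-of-ratios scaling (adjusted p = 0.048) and with voom (adjusted p = 0.034). RELB, the partner of p52 in the non-canonical pathway, had 15.1 and 15.3 RPKM in NB4 shM14 libraries, against 14.5 and 14.9 RPKM in NB4 shNS libraries. Its log2 change in NB4 was 0.05 (95% interval -0.07 to 0.17). In MM6 RELB had 6.55 and 5.08 RPKM with shM14, against 5.51 and 6.24 RPKM with shNS, and a log2 change of -0.02 that was 0.02 with median-of-ratios scaling.

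NFKBIA encodes I kappa B alpha, the inhibitor that is degraded on stimulation and then made again. NFKBIA had 83.3 and 36.7 RPKM in MM6 shM14 libraries, against 64.9 and 25.7 RPKM in MM6 shNS libraries. The replicate 1 library was the higher one in both MM6 groups, by 2.27-fold with shM14 and 2.52-fold with shNS, and the groups overlapped. In NB4 it had 95.1 and 96.8 RPKM with shM14, against 70.2 and 72.4 RPKM with shNS, a 1.34-fold rise without overlap (log2 change 0.42, SE 0.05, adjusted p = 0.0025). The mean change in MM6 was almost the same, 0.43, with a 95% interval of -0.93 to 1.78 (adjusted p = 0.80). Between libraries of the same number it was 0.36 and 0.50, but it was -0.15 without shM14 replicate 1, -0.23 without shNS replicate 2, 1.01 without shM14 replicate 2 and 1.08 without shNS replicate 1. NFKBIE, the gene of I kappa B epsilon, had 9.68 and 11.7 RPKM in MM6 shM14 libraries, against 9.33 and 8.88 RPKM in MM6 shNS libraries. NB4 libraries had 24.4 and 24.9 RPKM with shM14, against 21.2 and 24.1 RPKM with shNS. It did not overlap in either line, yet its log2 changes of 0.20 in MM6 and 0.12 in NB4 did not pass (adjusted p = 0.62 and 0.21). Without NB4 shNS replicate 2 the NB4 change was 0.21 (adjusted p = 0.040).

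NFKBIZ had the largest NB4 change of the 10. I kappa B zeta is an atypical member of the inhibitor family that acts in the nucleus as a co-activator of secondary response genes. NFKBIZ had 132 and 51.7 RPKM in MM6 shM14 libraries, against 95.2 and 25.7 RPKM in MM6 shNS libraries. In NB4 it had 24.5 and 25.8 RPKM with shM14, against 13.1 and 12.7 RPKM with shNS, a 1.95-fold rise without overlap (log2 change 0.91, SE 0.05, adjusted p = 5.1e-04). In MM6 replicate 1 exceeded replicate 2 by 2.56-fold with shM14 and 3.71-fold with shNS, more than shM14 exceeded shNS within either number. The same-number log2 changes in MM6 were 0.47 and 0.98. Their mean of 0.73 had a 95% interval of -1.03 to 2.48 (adjusted p = 0.73), and it was 0.058 without shM14 replicate 1, -0.20 without shNS replicate 2, 1.395 without shM14 replicate 2 and 1.65 without shNS replicate 1. The summed monocyte markers, nearly all LYZ, were also higher in replicate 1 than in replicate 2 of each MM6 group, as given above. Not every marker did so: CSF1R was lower in replicate 1 of both MM6 groups and CD163 was lower there with shNS. The part of these markers in the values of NFKBIZ was not tested.

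**Figure D2:**
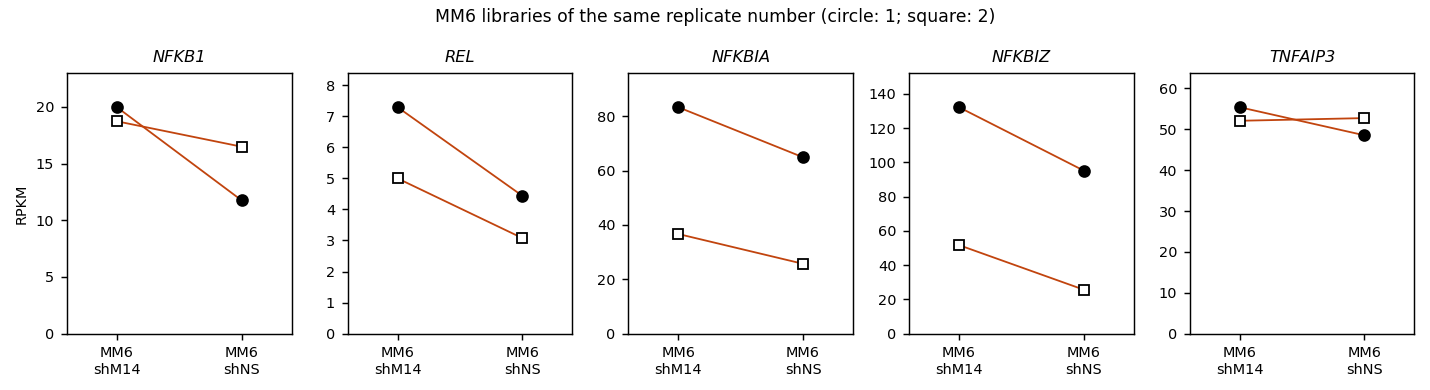
RPKM of 5 members in the 4 MM6 libraries on linear axes starting at 0, with shM14 on the left and shNS on the right of each panel. Circles are replicate 1, squares replicate 2, and lines join libraries of the same number. NFKBIA and NFKBIZ are separated by number more than by hairpin, whereas TNFAIP3 stays between 48.5 and 55.4 RPKM.

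TNFAIP3 encodes A20, a ubiquitin-editing enzyme that ends signalling from TNF and Toll-like receptors, and BIRC3 encodes cIAP2. TNFAIP3 had 55.4 and 52.1 RPKM in MM6 shM14 libraries, against 48.5 and 52.7 RPKM in MM6 shNS libraries, and the groups overlapped. NB4 libraries had 95.1 and 95.3 RPKM with shM14, against 70.3 and 71.2 RPKM with shNS, a 1.35-fold rise (log2 change 0.42, SE 0.04, adjusted p = 0.0021). Its MM6 change was 0.08, with a 95% interval of -0.25 to 0.42. BIRC3 had 0.601 and 0.534 RPKM in MM6 shM14 libraries, from 135 and 98 reads, against 0.501 and 0.370 RPKM, from 94 and 76 reads, in MM6 shNS libraries, and was too low there to be tested. In NB4 it had 4.17 and 4.02 RPKM with shM14, against 3.97 and 3.94 RPKM with shNS, and its log2 change was 0.04 (95% interval -0.08 to 0.16, adjusted p = 0.51).

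**Figure D3:**
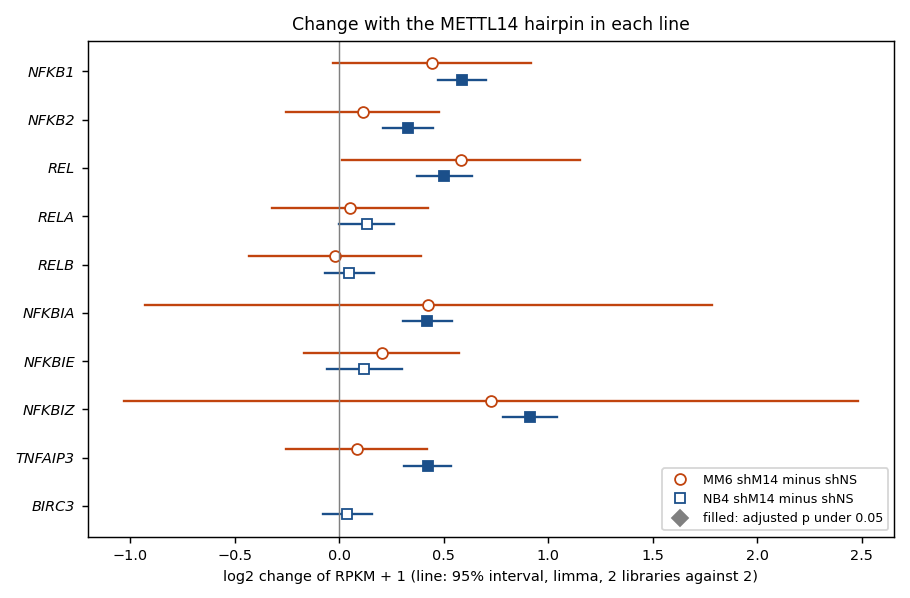
Log2 change of RPKM + 1, shM14 minus shNS, for each member, with circles for MM6 and squares for NB4. Lines are 95% intervals from limma over 2 libraries against 2, filled symbols have an adjusted p under 0.05, and BIRC3 was not tested in MM6. The 6 filled symbols are all NB4, and the MM6 intervals of NFKBIA and NFKBIZ run from below -0.9 to above 1.7.

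Several NB4 calls changed with the libraries in the model. When all 8 libraries shared 1 estimate of the spread per gene, NFKB1 and TNFAIP3 were still called in NB4, while NFKB2 (adjusted p = 0.069), REL (0.13), NFKBIA (0.63) and NFKBIZ (0.39) were not. That model called 713 of 12804 genes higher and 945 lower in NB4. In the additive model over both lines NFKB1 and REL rose, by 0.52 (SE 0.10, adjusted p = 0.018) and 0.54 (SE 0.12, adjusted p = 0.029), and the other 8 did not pass, where 11.9% of 12804 genes were called, 4.8% higher and 7.1% lower. Both calls were lost when any NB4 library was left out, with adjusted p of up to 0.068 for NFKB1 and up to 0.089 for REL. The call of REL was also lost without MM6 shM14 replicate 1 (0.051) or without MM6 shNS replicate 2 (0.057).

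No member was shown to differ between lines in its response, with 0 of 10 called by limma, beside 2.92% of genes tested (1.53% with the higher change in MM6 and 1.39% with the lower). At an unadjusted p under 0.05 there was 1 member, TNFAIP3, beside 2511 of 12804 genes tested, and voom called 0 members. The difference for TNFAIP3, MM6 change minus NB4 change, was -0.34 (95% interval -0.61 to -0.07, adjusted p = 0.17), and it stayed between -0.40 and -0.28 whichever library was left out. For NFKBIA the difference was 0.00 and for NFKBIZ -0.18, with 95% intervals of -1.61 to 1.62 and of -2.28 to 1.91.

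Upstream of the subunits, kinases, adaptors and receptors changed in both directions in NB4. Of 27 such genes 26 were tested, 6 rose, 9 fell and 11 did not pass, with a median log2 change of 0.03, beside 22.1% of all genes tested that rose and 25.2% that fell. Fewer of them fell when either NB4 shM14 library was left out, and fewer of all genes tested did so too. With all 8 libraries in 1 model 2 rose and 1 fell, beside 713 and 945 of 12804 genes tested. CHUK, the kinase IKK alpha, rose 0.45 in NB4, with 28.0 and 27.8 RPKM in shM14 libraries, against 20.3 and 20.1 RPKM in shNS libraries (adjusted p = 0.0018). The TNF receptor gene TNFRSF1B had 79.5 and 56.3 RPKM with shM14, against 32.2 and 25.6 RPKM with shNS, in MM6 (1.19, adjusted p = 0.12), and rose 0.65 in NB4 (adjusted p = 0.0021). IRAK2, a kinase of Toll-like receptor signalling, rose 0.49 in NB4, and CARD9, an adaptor of fungal sensing, fell by 0.91, to 12.3 and 12.1 RPKM with shM14, against 22.5 and 25.1 RPKM with shNS (adjusted p = 8.3e-04). In MM6 limma and voom called 0 of 26, and 4 had an unadjusted p under 0.05, beside 1779 of 11895 genes tested. The model of all 8 libraries called 1 higher and 1 lower there, beside 538 and 773 of 12804 genes. IRAK1, another kinase of that pathway, had 39.9 and 39.3 RPKM with shM14, against 52.3 and 57.4 RPKM with shNS, in MM6 (-0.46, adjusted p = 0.22). In NB4 IRAK1 rose 0.22 (adjusted p = 0.015). Of the 26, 0 were called with the higher change in MM6 and 2 with the lower, beside 1.53% and 1.39% of genes tested. These were IRAK1 and IRAK2 (MM6 minus NB4 -0.68 each, adjusted p = 0.032 and 0.031).

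Among other negative regulators 8 rose and 2 fell in NB4, of 18 tested and 20 listed, beside 22.1% and 25.2% of all genes tested. Their median log2 change was 0.11. With all 8 libraries in 1 model 3 rose and 1 fell. Fewer rose and fewer fell without either NB4 shM14 library or without NB4 shNS replicate 1, as was so over all genes tested. BCL3, an atypical I kappa B protein that pairs with p50 and p52 in the nucleus, rose 1.36, with 9.26 and 8.93 RPKM in NB4 shM14 libraries, against 3.25 and 2.62 RPKM in NB4 shNS libraries. IRAK3, an inhibitory kinase-like protein, rose 0.90, ZC3H12A, the RNase regnase-1, rose 0.86 and COMMD1 rose 0.49. The 2 that fell, N4BP1 (-0.45) and CYLD (-0.19), are named after their values were seen. In MM6 limma and voom called 0 of 18, and 4 had an unadjusted p under 0.05, beside 1779 of 11895 genes tested. The model of all 8 libraries called 3 higher and 1 lower there. Over 12804 genes that model gave 538 higher and 773 lower in MM6, and 713 and 945 in NB4. TAX1BP1, an A20 adaptor, had 38.5 and 40.3 RPKM with shM14, against 84.0 and 73.1 RPKM with shNS, in MM6 (-0.97, adjusted p = 0.087). TNIP1, another A20 partner, had 32.9 and 26.3 RPKM with shM14, against 19.3 and 18.4 RPKM with shNS, in MM6 (0.62, adjusted p = 0.18). Of the 18, 0 were called with the higher change in MM6 and 2 with the lower, beside 1.53% and 1.39% of genes tested. These were TAX1BP1 (MM6 minus NB4 -0.85, adjusted p = 0.028) and IRAK3 (-0.67, adjusted p = 0.032).

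Textbook target genes outside the family mostly rose in NB4, and several by more than any member. Of 30 genes 29 were listed and 24 were tested in NB4, where 16 rose, 2 fell and 6 did not pass, with a median log2 change of 0.47, beside 22.1% of all genes tested that rose and 25.2% that fell. Among the 16, CXCL2 (2.49 and 2.34 RPKM with shM14, 0.462 and 0.288 with shNS) and CXCL3 passed the filter only through the shM14 libraries. These genes were thus tested only because they were high with shM14, and their rise is no separate support. The adhesion molecule ICAM1 had 165 and 167 RPKM in NB4 shM14 libraries, against 36.1 and 35.5 RPKM in NB4 shNS libraries, a log2 change of 2.18. IL1B, the interleukin 1 beta gene, rose 3.11, the chemokine gene CCL2 2.04 and the early response gene IER3 1.51. The 2 that fell were IRF1 (-0.55) and IL1RN (-0.27), named after their values were seen. With all 8 libraries in 1 model 5 targets rose and 0 fell in NB4. Fewer rose and fewer fell without NB4 shM14 replicate 2, as was so over all genes tested. In MM6 limma and voom called 0 of 27 targets, and the median was 0.58. An unadjusted p under 0.05 was seen for 8, beside 1779 of 11895 genes tested. Among the 8, IL6 passed the filter only through the MM6 shM14 libraries. There the model of all 8 libraries called 4 higher and 1 lower. Leaving out MM6 shNS replicate 1 gave more targets called higher, as it did over all genes tested. Over 12804 genes the model of all 8 libraries gave 538 higher and 773 lower in MM6, and 713 and 945 in NB4. The chemokine gene CCL4 had 41.9 and 21.0 RPKM with shM14, against 3.77 and 1.67 RPKM with shNS, in MM6 (3.11, adjusted p = 0.078). CCL2 there had 12.6 and 6.44 RPKM with shM14, against 1.63 and 0.565 RPKM with shNS (2.31, adjusted p = 0.098). ICAM1 there changed by 0.27, and its groups overlapped. Of 27 targets 0 were called with the higher change in MM6 and 2 with the lower, beside 1.53% and 1.39% of genes tested. These were ICAM1 (MM6 minus NB4 -1.91, adjusted p = 0.012) and PLAU (-1.11, adjusted p = 0.036). This list, like the others, was drawn up with earlier results of these libraries known. In NB4 4 of the 5 monocyte markers tested also rose, and their part in the rise of the targets was not tested. CD36, 1 of the 4, passed the filter only through the shM14 libraries (4.34 and 4.24 RPKM, against 0.252 and 0.260 with shNS).

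**Figure D4:**
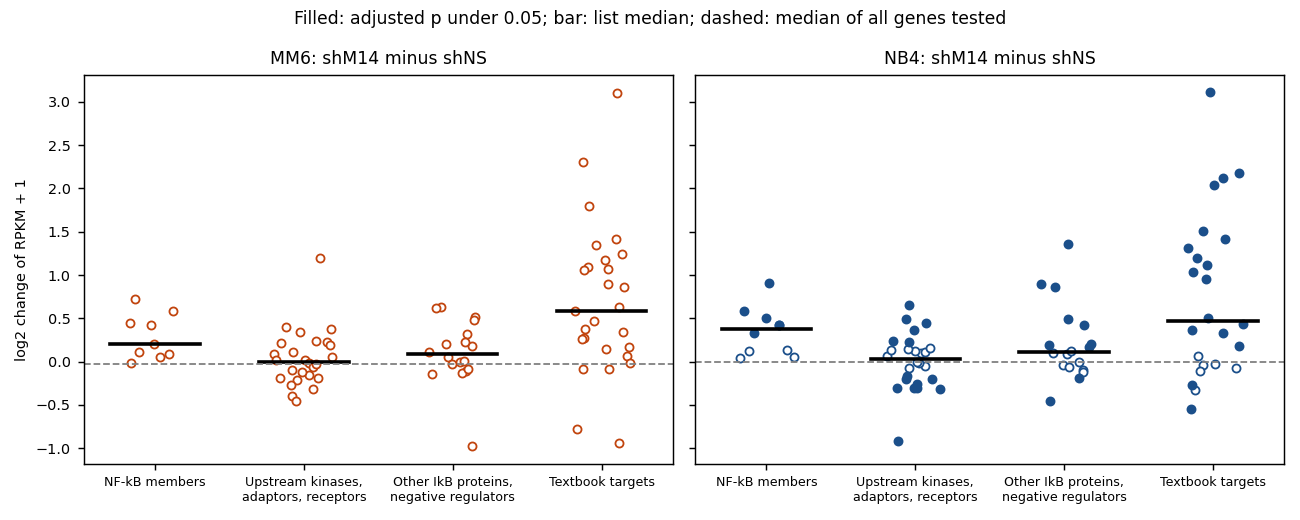
Log2 change of RPKM + 1, shM14 minus shNS, of the 10 members and of 3 lists around them, in MM6 on the left and NB4 on the right. Each point is a gene, filled where the adjusted p was under 0.05, solid bars are list medians and the dashed line is the median of all genes tested. Targets spread up to 3.11 in both lines, and the upstream list lies on both sides of 0.

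Among 8421 genes with a mean of at least 5 RPKM, the profiles over the 8 libraries closest to that of NFKBIA were those of MDM2, GABARAPL1 and MED6. Likeness was the root mean square difference between centred and scaled log2 profiles, which was 0.22, 0.24 and 0.25 for these 3. REL was the nearest member to NFKBIA, at 0.45, and NFKBIZ the farthest, at 1.33. Closest to RELA were ADAM17, PLEK and EMR2, at 0.16, 0.17 and 0.19. These distances mix differences between lines, hairpins and replicates, and are given as a description.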

How the data were processed

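Poly(A) RNA of 8 libraries was prepared from 100 ng of total RNA and read as single ends of 50 bp, per the labels. The authors deposited 1 table per line. The kit keeps strand, but the aligner, counter, strand setting, build and test were not given in the sources used here. Deposited RPKM values per library were worked out from the values to be scaled to gene length and to the reads assigned to genes. The deposited signal columns are group means of reads over a size factor. The authors' ratio and log2 fold change are shM14 over shNS, and the deposited p-value columns hold p and its adjustment. Both kinds of values together gave whole reads for 100% of the values within 0.01.

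Genes reaching 1 RPKM in 2 or more libraries of a fit were tested on log2(RPKM + 1), which understates changes of low genes, with limma 3.58.1 (R 4.3.3), two-sided, with Benjamini-Hochberg adjustment over all genes tested and a threshold of 0.05. Each line was fitted alone. An additive model and an interaction used all 8 libraries. Scripts were tested on simulated data. Python 3.11.15 made summaries. Members, lists and motifs were chosen with earlier results of these data known. All 10 members are named, and from each list up to 4 genes by smallest p in NB4 and 2 in MM6. Others are named where the filter or a called difference between lines concerned them, or where the text says so. Promoters are RefSeq's (GRCh38.p14), used for sequence only. Alternatives were another pseudocount, filter, scaling, variance model and sample set, and voom on recovered reads.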

Additional observations from a re-analysis of the deposited data

How the results depend on the processing

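The 6 NB4 member calls were kept without each NB4 library in turn, with 6 to 7 members called. They also held under a pseudocount of 0.1, either other filter, the replicate block and the variance trend, with 6 members each; scaling and voom (voom was chosen after the data were seen) added RELA to these 6 and gave 7. The planned quasi-likelihood test on recovered reads was not run, and voom on the same recovered reads took its place. The deposited columns themselves are not counts, which holds for either test. In 1 model of all 8 libraries 2 were called. Over both lines 0 to 2 members were called without a library. In MM6, 9 genes were called (6 higher, 3 lower), against 3 (1 higher, 2 lower) with scaling, 0 without a filter, 4 with the filter of 5 RPKM, 39 with voom, 1311 with all 8 libraries in 1 model and 5 to 23 without a library. In NB4 5460 genes were called, 1658 with all 8 libraries and 3049 to 4637 without a library. Over both lines 1523 were called, 496 to 1926 without a library. For the difference between lines 374 were called, 203 with a pseudocount of 0.1, 207 with voom and 5 to 742 without a library. The causes of these shifts were not tested.

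The replicate block was tried although the labels state no pairing. Deviations of same-numbered libraries from their group means correlated at 0.70 over genes in MM6 and at 0.08 in NB4. The block called 2 members in MM6, REL and NFKBIZ, with 1405 genes there. In NB4 it called 6 members, beside 2433 genes higher and 2808 lower of 11531 tested. Over both lines it called 4 members, beside 601 genes higher and 851 lower of 12804 tested. For the difference it called 1143 genes. The block with all 8 libraries in 1 model, chosen after the data were seen, called 3 members in MM6 (REL, NFKBIA and NFKBIZ) with 2752 genes, and 6 members in NB4 with 3120 genes. Of the lists in MM6, the block within the line called 10 of 27 targets higher and 2 lower. It called 4 of 18 regulators higher and 1 lower, and 1 of 26 upstream genes higher and 1 lower. Of all 11895 genes tested there, it called 595 higher and 810 lower.

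Changes that crossed 0 when a library was left out were RELA -0.069 to 0.17, RELB -0.18 to 0.14, NFKBIA -0.23 to 1.08 and NFKBIZ -0.20 to 1.65 in MM6, and RELB -0.041 to 0.083 over both lines. Scaling gave RELB 0.019 in MM6. For the difference between lines the ranges were NFKB1 -0.37 to 0.085, REL -0.15 to 0.31, RELA -0.20 to 0.037, RELB -0.22 to 0.088, NFKBIA -0.65 to 0.66, NFKBIE -0.040 to 0.21 and NFKBIZ -1.11 to 0.74. With 2 libraries a group, the width of the MM6 intervals limits what could be called there, and BIRC3 in MM6 is limited by its reads.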

Other observations

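Target genes of NF-kB separated the MM6 libraries by replicate number, as NFKBIA and NFKBIZ did. Of the 27 targets tested in MM6, 22 were higher in replicate 1 than in replicate 2 in both the shM14 and the shNS group and 3 were lower in both, whereas of all 11895 genes tested 2429 (20.4%) were higher in both and 6001 were lower in both. Of the 9 members tested, 5 were higher in replicate 1 in both MM6 groups and 0 lower. The median log2 difference of the 27, replicate 1 minus replicate 2, was 0.94 with shM14 and 0.66 with shNS, beside -0.13 and -0.06 over all genes tested. CXCL8, the interleukin 8 gene, stood 2.19 higher with shM14 and 2.47 higher with shNS in replicate 1, IER3 2.06 and 1.89 higher, and CCL3 1.74 and 2.17 higher. TNF went the other way, at -0.97 with shM14 and -0.10 with shNS. In NB4 8 of 24 targets were higher in replicate 1 in both groups and 3 lower, beside 2784 and 3106 of 11531 genes tested. Of the 10 members, 1 was higher and 5 were lower in replicate 1 of both NB4 groups. The labels do not say what the replicate number stands for.

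ELANE, the neutrophil elastase gene, also followed the replicate number in NB4, with 0.0387 and 6.45 RPKM in replicates 1 and 2 with shM14 and 0.0462 and 6.83 RPKM with shNS. It was named after its values were seen.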
